A study of Mus musculus with 38 samples.

Results

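The genes that make cholesterol, together with other targets and the processing machinery of the transcription factor SREBP2, were followed in the livers of mice lacking the insulin receptor with or without FoxO1. The set was given as 31 gene symbols, and each gene was read from its annotated probe, or from the probe with the highest mean where it had several. It held 29 measured genes of the 22485 genes on the arrays, and Acat2 and Soat2 were not measured here. Total liver RNA of 37 mice in 11 groups entered the comparisons. Every mouse was male, 11 to 12 weeks old, and of mixed FVB/N-C57Bl/6 descent.

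4 genotypes were compared. IR floxed mice carry a floxed insulin receptor gene (Insr) and served as controls for LIRKO mice, in which Cre driven by the albumin promoter deletes Insr in the liver. IR/FoxO1 floxed mice carry floxed Insr and floxed Foxo1 and served as controls for LIRFKO mice, in which both genes are deleted by the same Cre. The FoxO1 floxed allele came from FVB/N mice and the other alleles from C57Bl/6 mice, so the IR line and the IR/FoxO1 line could differ in background as well as in the floxed gene. Mice were fasted overnight (given elsewhere in the labels as 24 h), or given food again for 6 h after the fast, or examined 60 min after glucose. Fasted, refed and glucose-treated groups held 4, 4 and 3 IR floxed mice, and 3, 4 and 3 mice each for LIRKO and LIRFKO. The IR/FoxO1 floxed line had 3 fasted and 3 refed mice and no glucose group. Each mouse was a sample of its own, so p-values measure the spread between mice. Single mice are called by their titles, in which IR.fl, IR.KO, IRF.fl and IRF.KO stand for IR floxed, LIRKO, IR/FoxO1 floxed and LIRFKO, and GTT for glucose.

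Cholesterol is built from acetyl-CoA through mevalonate, farnesyl diphosphate and squalene, and the liver is a main site of its synthesis. When sterols in the endoplasmic reticulum are low, SCAP carries SREBP2 to the Golgi, where the proteases encoded by Mbtps1 and Mbtps2 release its active fragment, which raises transcription of nearly every enzyme of the pathway. INSIG proteins hold SCAP back when sterols are plentiful, and Insig1 is itself a target, whereas a liver transcript of Insig2 is known to be lowered by insulin.

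The promoters of the members the results turn on are printed to show the elements that these genes share and those they do not. RefSeq promoters (GRCm38.p6) matched 24 of the 29 measured genes. Fdps, Fdft1, Sqle, Stard4 and Npc1 had no entry. The 250 bases before the annotated start were searched on both strands for TCACNCCAC, a core form of the sterol regulatory element, for CCAAT, the NF-Y box, for GGGCGG, the GC box bound by Sp1, and for CACGTG, an E-box; no pair of these letter strings is contained in another. In the sequences below, capitals mark TCACNCCAC and CCAAT on either strand, so that ATTGG is a CCAAT on the opposite strand. Hmgcs1, Mvd and Lss stand for the enzymes that moved together, and Tm7sf2 and Ebp for the enzymes that did not move with them.
Hmgcs1, chr13:119690101-119690350, plus strand: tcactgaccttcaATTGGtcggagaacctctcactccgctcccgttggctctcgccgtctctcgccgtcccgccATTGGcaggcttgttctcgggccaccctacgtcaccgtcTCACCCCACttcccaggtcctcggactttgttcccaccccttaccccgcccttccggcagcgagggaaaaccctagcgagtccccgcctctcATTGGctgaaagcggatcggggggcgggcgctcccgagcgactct
Mvd, chr8:122443423-122443672, minus strand: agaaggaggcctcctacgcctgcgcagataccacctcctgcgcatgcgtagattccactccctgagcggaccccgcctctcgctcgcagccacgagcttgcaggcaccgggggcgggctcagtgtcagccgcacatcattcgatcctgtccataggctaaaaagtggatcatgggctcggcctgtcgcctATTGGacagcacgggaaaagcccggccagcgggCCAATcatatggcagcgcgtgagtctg
Lss, chr10:76531355-76531604, plus strand: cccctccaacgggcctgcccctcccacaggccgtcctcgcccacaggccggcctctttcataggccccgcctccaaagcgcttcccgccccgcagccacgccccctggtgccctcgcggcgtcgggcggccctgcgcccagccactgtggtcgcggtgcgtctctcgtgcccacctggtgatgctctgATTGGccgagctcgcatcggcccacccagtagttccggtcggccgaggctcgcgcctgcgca
Tm7sf2, chr19:6067851-6068100, minus strand: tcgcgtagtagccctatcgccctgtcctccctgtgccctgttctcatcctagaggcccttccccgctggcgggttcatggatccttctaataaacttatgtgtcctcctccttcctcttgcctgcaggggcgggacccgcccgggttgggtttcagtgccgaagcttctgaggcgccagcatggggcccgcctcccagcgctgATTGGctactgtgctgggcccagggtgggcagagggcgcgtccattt
Ebp, chrX:8193513-8193762, minus strand: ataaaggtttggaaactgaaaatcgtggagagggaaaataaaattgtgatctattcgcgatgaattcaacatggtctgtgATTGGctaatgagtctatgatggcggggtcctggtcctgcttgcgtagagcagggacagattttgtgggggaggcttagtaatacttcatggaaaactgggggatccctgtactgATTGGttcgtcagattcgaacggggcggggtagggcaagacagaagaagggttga

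CCAAT was present in 14 of 14 matched synthesis enzymes and in 20 of 24 matched members, against 33.8% of all 32851 promoters of the same length and 37.5% of all 27025 genes, counted, as the members were, once a gene. Hmgcs1 held 3 copies, Mvd and Ebp 2 each, and Lss and Tm7sf2 1 each. GGGCGG was found in 13 of the 14 enzymes and 20 of the 24 members, against 32.7% of promoters and 35.4% of genes. TCACNCCAC, as spelled here, was found in Hmgcs1 alone among the members, and in 1.05% of promoters and 1.22% of genes. CACGTG was found in 6 members (Dhcr7, Hsd17b7, Insig1, Rdh11, Sc5d and Scap) and in 6.02% of promoters and 6.86% of genes. Tm7sf2 and Ebp, whose levels departed from the other enzymes, carried CCAAT and GGGCGG within this window as well.

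Values are log2 single-channel intensities, and levels of different genes are not comparable because each probe has its own brightness. The columns had medians between 5.72 and 5.78. 6 of the 7 hepatocyte markers were measured and lay at or above the 98.1st percentile of all genes. Insr read between 6.30 and 7.80 in LIRKO and between 7.77 and 9.04 in IR floxed mice, and Foxo1 read between 6.07 and 7.12 in LIRFKO mice and between 9.14 and 10.91 in all other mice apart from the library labelled IRF.fl_Fast_523. That library, labelled as a fasted IR/FoxO1 floxed control, read 6.90 for Insr and 6.77 for Foxo1, whereas the other 2 mice of its group read 8.27 and 8.14 for Insr and 10.57 and 10.17 for Foxo1. It therefore goes against its label, and the comparisons that use fasted IR/FoxO1 floxed mice are also given without it. The sample IRF.KO_GTT_724 had conflicting labels and entered no comparison. In bulk tissue, fewer cells of a type and less RNA per cell cannot be told apart.

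The mean over the 17 measured enzymes of the pathway from Hmgcs1 to Dhcr7 was highest in refed mice of the IR/FoxO1 line, with or without the deletions. The mean log2 level over the 17 enzymes was 9.53 ± 0.43 (SD, n = 4) in fasted and 10.28 ± 0.66 (n = 4) in refed IR floxed mice. In LIRKO mice it was 9.41 ± 0.34 (n = 3) fasted and 9.27 ± 0.50 (n = 4) refed. In LIRFKO mice it was 10.08 ± 0.65 (n = 3) fasted and 11.79 ± 0.58 (n = 4) refed. Refed IR/FoxO1 floxed mice stood at 11.98 ± 0.49 (n = 3), and the fasted mice of that line at 9.38, 9.65 and, in IRF.fl_Fast_523, 11.45. That library thus lay at the level of the refed mice of its line, which ran from 11.42 to 12.29. Glucose-treated mice stood at 9.39 ± 0.23 (IR floxed), 9.22 ± 0.18 (LIRKO) and 9.86 ± 0.62 (LIRFKO), n = 3 each. Single mice also stood apart within their groups. IR.fl_Refed_566 had an enzyme mean of 9.33 where the other 3 had 10.36 to 10.72, IR.KO_Refed_558 had 8.55, and IRF.KO_Refed_478 had 10.95 where the other 3 had 11.96 to 12.25. Among fasted IR floxed mice IR.fl_Fast_486 had 10.15 where the others had 9.15 to 9.48.

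**Figure D1:**
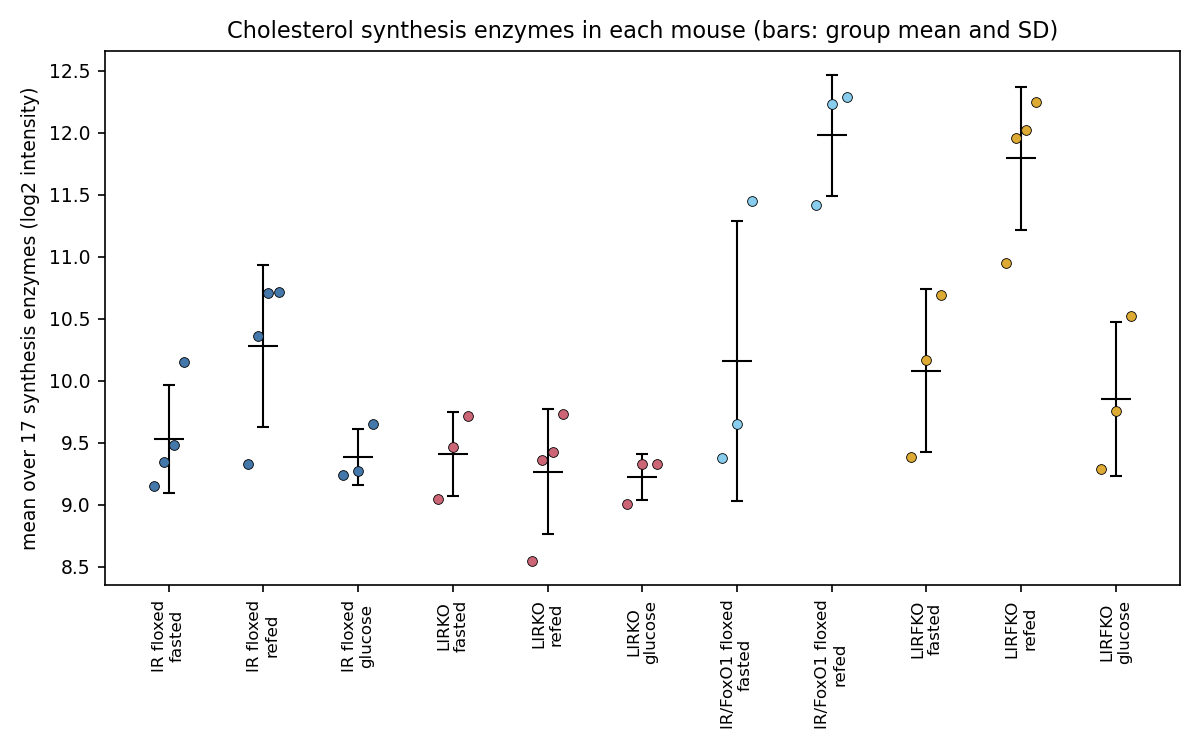
Mean log2 intensity over 17 cholesterol synthesis enzymes (vertical axis) in each mouse of the 11 groups (horizontal axis), with the group mean and SD as bars. Refed IR/FoxO1 floxed and LIRFKO mice sit between 10.95 and 12.29, and the highest point among fasted mice, at 11.45, is IRF.fl_Fast_523.

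**Figure D2:**
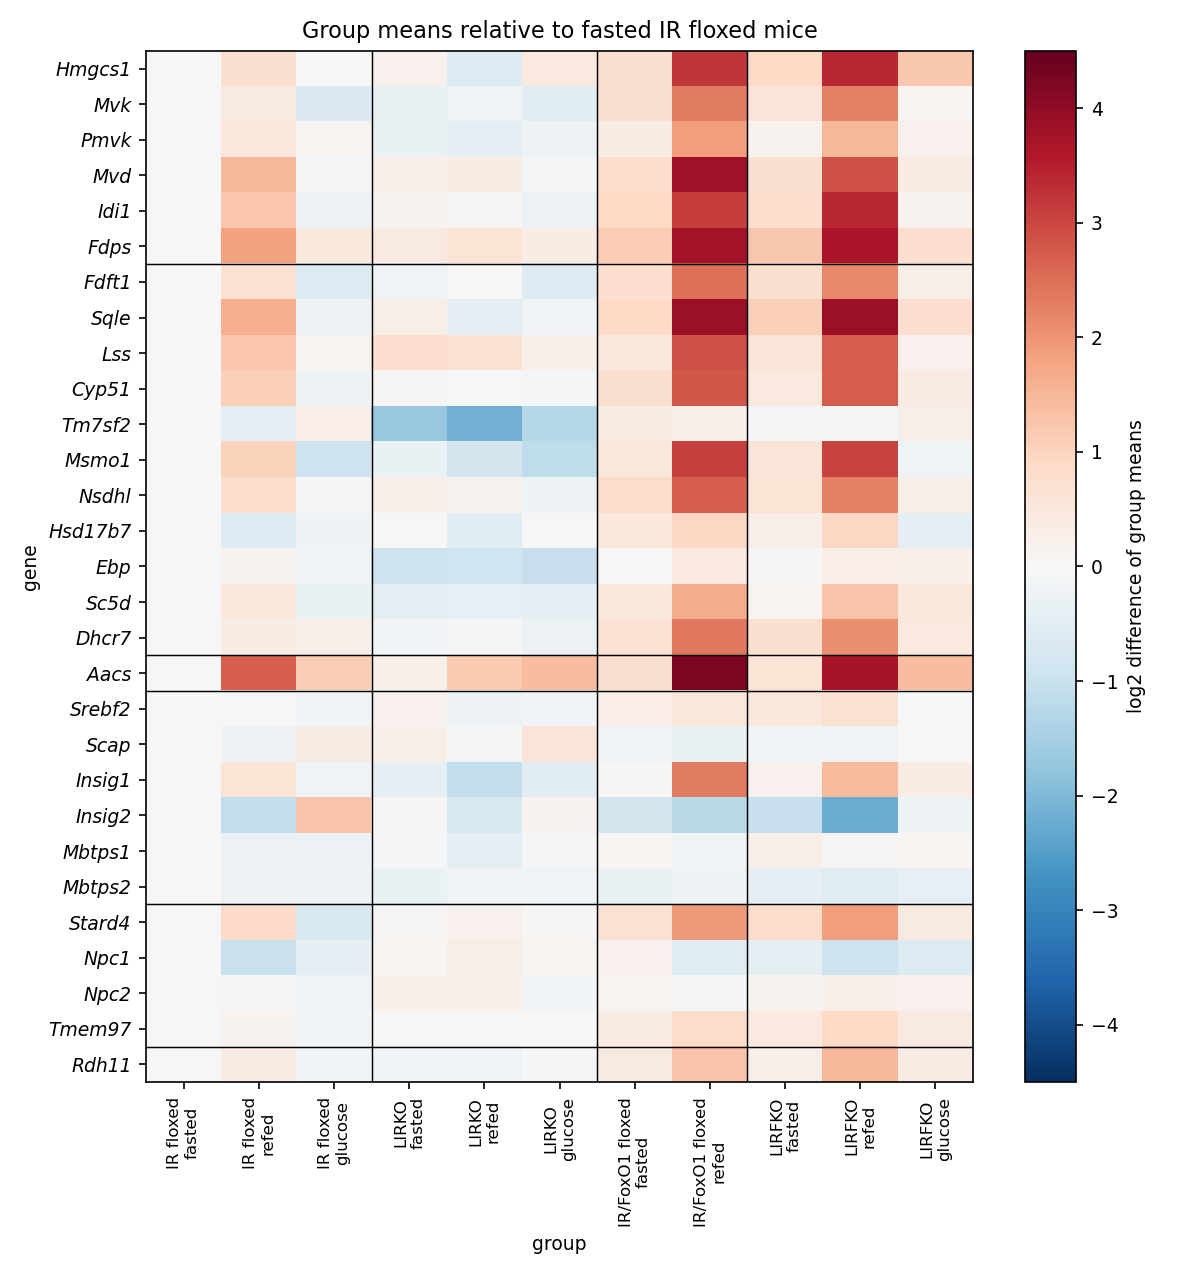
Difference between each group mean and the mean of fasted IR floxed mice (colour, log2) for the 29 members (rows, split by role) in the 11 groups (columns). Most enzymes and Aacs are darkest in refed IR/FoxO1 floxed and LIRFKO mice, whereas Tm7sf2 and Ebp are low in the 3 LIRKO columns and Insig2 is lowest in refed LIRFKO mice.

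The first question was how the members answered a meal in each genotype. In IR/FoxO1 floxed mice 15 of the 29 members rose and 1 fell at an adjusted p under 0.05 (limma, Benjamini-Hochberg over all 22485 genes), against 3.54% of all genes called, with a median member difference of 1.40 on the log2 scale. In LIRFKO mice 11 rose and none fell, against 1.81% of all genes, with a median of 1.16, and 20 members had an unadjusted p under 0.05. In IR floxed mice 2 rose and 1 fell, against 3.61% of all genes, with a median of 0.51 and 12 members at an unadjusted p under 0.05. In LIRKO mice no member was called by limma, against 1.85% of all genes, and the median was -0.15, with 3 members at an unadjusted p under 0.05. The median over all genes lay within 0.01 of 0 in each of these comparisons.

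In the early pathway, which leads from acetoacetyl-CoA to farnesyl diphosphate, all 6 measured enzymes rose with refeeding in IR/FoxO1 floxed mice and 5 of the 6 in LIRFKO mice. Mvd, the decarboxylase that yields isopentenyl diphosphate, read 6.37, 9.25 (IRF.fl_Fast_523) and 6.75 in the fasted and 9.88, 10.96 and 10.68 in the refed mice of the IR/FoxO1 floxed line. Its groups did not overlap, and the difference was 2.84 ± 0.49 (SE), 7.14-fold, with a limma adjusted p of 0.00125. In LIRFKO mice Mvd read 6.52, 7.58 and 8.07 fasted and 9.42, 10.04, 8.71 and 9.96 refed, again without overlap, a difference of 2.08 ± 0.45 with an adjusted p of 0.0173. In IR floxed mice it read 7.28, 6.45, 6.73 and 6.28 fasted and 7.92, 8.07, 8.89 and 7.84 refed. Those groups did not overlap either, and the difference of 1.40 ± 0.43 missed the threshold at an adjusted p of 0.0656. LIRKO mice read 6.95, 6.34 and 7.41 fasted and 7.27, 5.96, 7.72 and 7.09 refed for Mvd, which overlapped widely, with a difference of -0.03 ± 0.48.

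Hmgcs1, the HMG-CoA synthase of the cytosol, read 10.57, 13.14 (IRF.fl_Fast_523) and 10.46 in fasted and 13.30, 14.13 and 14.18 in refed ones of the IR/FoxO1 floxed line. The difference was 2.45 ± 0.57, and in LIRFKO mice it was 2.43 ± 0.53, from 11.11, 11.55 and 12.01 fasted to 14.28, 14.01, 13.10 and 14.91 refed. Both passed the test, with limma adjusted p-values of 0.0136 and 0.0179. In IR floxed mice the difference was 0.62 ± 0.50, and in LIRKO mice -0.86 ± 0.57, and neither passed. The kinases Mvk and Pmvk, the isomerase Idi1 and the prenyl transferase Fdps rose by between 1.35 and 2.48 in IR/FoxO1 floxed mice. In LIRFKO mice Mvk, Pmvk and Idi1 rose by 1.70, 1.34 and 2.42, and Fdps differed by 2.23 without passing.

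Among the 11 enzymes that convert farnesyl diphosphate to cholesterol, 7 rose in IR/FoxO1 floxed mice (Fdft1, Sqle, Lss, Cyp51, Msmo1, Sc5d and Dhcr7) and 4 in LIRFKO mice (Lss, Cyp51, Sc5d and Dhcr7). Lss, the cyclase that makes lanosterol, read 7.12, 9.15 (IRF.fl_Fast_523) and 7.37 fasted and 9.40, 10.73 and 10.63 refed in IR/FoxO1 floxed mice, a difference of 2.27 ± 0.41 with an adjusted p of 0.00187. In LIRFKO mice it read 7.24, 8.06 and 8.48 fasted and 10.23, 10.40, 8.94 and 10.81 refed, a difference of 2.16 ± 0.38 with an adjusted p of 0.00413. In both genotypes every refed mouse lay above every fasted mouse. In IR floxed mice Lss read 7.88, 6.94, 6.94 and 7.67 fasted and 8.50, 8.79, 9.17 and 7.95 refed, and the difference of 1.28 ± 0.36 had an adjusted p of 0.0441. That call was lost when any of the 8 mice was left out, with adjusted p-values up to 0.214 (without IR.fl_Fast_542), and also with slide as a term (0.0998) or without the array block (0.121). In LIRKO mice Lss read 8.44, 7.51 and 8.34 fasted and 8.54, 7.67, 7.88 and 8.16 refed, and the groups overlapped.

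Dhcr7, the last reductase of the pathway, read 7.68, 9.44 (IRF.fl_Fast_523) and 8.09 fasted and 9.62, 10.49 and 10.26 refed in IR/FoxO1 floxed mice, a difference of 1.58 ± 0.30. In LIRFKO mice the values were 8.22, 8.27 and 8.90 fasted and 10.36, 10.01, 9.07 and 9.94 refed, a difference of 1.40 ± 0.28. The groups did not overlap in either genotype. In IR floxed mice Dhcr7 read 8.27, 7.68, 7.38 and 7.61 fasted and 8.19, 8.13, 8.10 and 7.92 refed, with overlap. Sc5d, the sterol desaturase, read 11.25, 11.76 (IRF.fl_Fast_523) and 10.69 fasted and 12.07, 12.60 and 12.67 refed in IR/FoxO1 floxed mice. The rise of 1.35 ± 0.27 there and of 1.13 ± 0.26 in LIRFKO mice passed the test. Sqle, the squalene epoxidase, differed by 2.94 ± 0.78 in IR/FoxO1 floxed mice, where it was called, by 2.50 ± 0.73 in LIRFKO mice (adjusted p of 0.0755) and by 1.64 ± 0.69 in IR floxed mice (adjusted p of 0.234). Tm7sf2, a sterol reductase, and Ebp, the sterol isomerase, passed in no refeeding comparison, and Tm7sf2 differed by -0.04 ± 0.29 in IR/FoxO1 floxed mice while its neighbours in the pathway rose. Hsd17b7, the ketosteroid reductase of the pathway, and Nsdhl, the dehydrogenase before it, passed in none either.

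Aacs, which turns acetoacetate into acetoacetyl-CoA for lipid synthesis, rose with refeeding in each genotype except LIRKO. IR floxed mice read 7.52, 7.34, 8.20 and 8.52 fasted and 10.90, 11.87, 10.31 and 9.32 refed, a difference of 2.54 ± 0.51 with an adjusted p of 0.00464. In IR/FoxO1 floxed and LIRFKO mice the differences were 3.32 ± 0.59 and 2.88 ± 0.55. LIRKO mice read 8.37, 7.71 and 8.29 fasted and 9.33, 8.11, 9.63 and 9.29 refed, a difference of 0.69 ± 0.59 that did not pass. The SREBP2 target Rdh11, a retinal reductase, rose by 1.16 ± 0.25 in LIRFKO mice and differed by 0.82 in IR/FoxO1 floxed mice.

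Of the 6 genes of SREBP2 and its processing, Insig1 was the only member called on refeeding, in IR/FoxO1 floxed mice. Insig1 there read 6.98, 8.91 (IRF.fl_Fast_523) and 7.21 fasted and 10.09, 9.85 and 9.97 refed, a difference of 2.39 ± 0.53 with an adjusted p of 0.0087. LIRFKO mice read 7.08, 7.95 and 8.46 fasted and 9.11, 9.33, 8.25 and 9.48 refed, which overlapped, a difference of 1.09 ± 0.49. LIRKO mice read 7.31, 6.52 and 7.71 fasted and 6.84, 6.17, 6.28 and 6.83 refed, a difference of -0.79 ± 0.52 that did not pass. Refed IR floxed mice spread widely, at 8.23, 9.33, 8.95 and, in IR.fl_Refed_566, 6.50.

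Srebf2, which encodes SREBP2, read 6.63, 7.18 (IRF.fl_Fast_523) and 6.57 fasted and 6.81, 7.03 and 7.18 refed in IR/FoxO1 floxed mice. It read 6.54, 6.72, 6.57 and 6.14 fasted and 6.49, 6.65, 6.78 and 6.16 refed in IR floxed mice. The groups overlapped in both lines, in IR/FoxO1 floxed mice through IRF.fl_Fast_523 alone, and the refeeding differences of Srebf2 ran from -0.47 (LIRKO) to 0.30 (IR/FoxO1 floxed, 0.44 without that library) with no call. Insig2 read 13.15, 12.23, 13.61 and 11.37 in fasted and 10.70, 10.97, 11.15 and, in IR.fl_Refed_566, 13.18 in refed IR floxed mice. It read 12.78, 11.76 and 10.16 in fasted and 9.86, 10.16, 11.56 and 9.83 in refed LIRFKO mice. The differences of -1.26 ± 0.57 and -1.08 ± 0.60 did not pass, and Insig2 overlapped between fasted and refed mice in every genotype except LIRKO, where all 4 refed mice (11.50 to 12.21) lay just below the fasted mice (12.22 to 13.31). In IR/FoxO1 floxed mice the overlap came from IRF.fl_Fast_523 (10.07), since the other fasted mice read 13.48 and 11.70 and the refed mice 11.62, 11.14 and 11.26, and without it the difference was -1.44 with an adjusted p of 0.415. Insig2 was also read in the single mice whose enzyme means stood apart. IRF.fl_Fast_523, with a high enzyme mean, had the lowest Insig2 of the fasted IR/FoxO1 floxed mice. IR.fl_Refed_566 and IRF.KO_Refed_478, with low enzyme means, had the highest Insig2 of their groups. IR.KO_Refed_558, also with a low enzyme mean, did not, since its Insig2 of 11.91 lay within the range of the other refed LIRKO mice. IR.fl_Fast_486, with a high enzyme mean, did not have the lowest Insig2 of its group. Its value of 13.15 lay within the range of the other fasted IR floxed mice. Scap and the proteases Mbtps1 and Mbtps2 differed by at most 0.27 in size in any refeeding comparison.

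Among the sterol transport genes, Npc1, which moves cholesterol out of lysosomes, fell with refeeding in IR floxed mice and, less firmly, in IR/FoxO1 floxed mice. IR floxed mice read 9.36, 9.67, 9.39 and 9.49 fasted and 8.66, 8.32, 8.38 and 8.60 refed, with no overlap, a difference of -0.96 ± 0.15 and an adjusted p of 0.000523. IR/FoxO1 floxed mice read 9.61, 9.67 and 9.69 fasted and 8.99, 8.59 and 9.26 refed, a difference of -0.64 ± 0.17 with an adjusted p of 0.0373. That call was lost without 5 of the 6 mice left out in turn (adjusted p up to 0.193, without IRF.fl_Refed_472), with slide as a term (0.0532) and without the array block (0.091). In LIRFKO mice the difference of -0.58 ± 0.16 had an adjusted p of 0.0591. LIRKO mice read 9.06, 10.04 and 9.57 fasted and 9.48, 9.55, 9.84 and 10.13 refed, a difference of 0.23 ± 0.17 that did not pass. Stard4, a cytosolic sterol carrier and SREBP2 target, differed by 1.40 ± 0.57 in IR/FoxO1 floxed mice and passed in no genotype. Npc2 and Tmem97, which act with or on NPC1, did not pass in any refeeding comparison.

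The refeeding counts depended on single mice. Without IRF.fl_Fast_523, 17 members rose in IR/FoxO1 floxed mice, against 2.05% of all genes, and the median was 2.09. Sqle then rose by 4.11, Mvd by 3.75, Fdps by 3.60, Hmgcs1 by 3.30, Insig1 by 2.99, Lss by 2.85 and Dhcr7 by 2.09. Nsdhl (2.76) and Rdh11 (1.26) were also called, and Npc1 no longer passed (adjusted p of 0.0597). Without each other mouse of that comparison that moved the count past 1.5 times, it was 5 (IRF.fl_Fast_516), 7 (IRF.fl_Fast_533), 6 (IRF.fl_Refed_472) or 7 (IRF.fl_Refed_473), and Mvd, Lss, Sc5d, Dhcr7 and Aacs were called throughout. In LIRFKO mice the count was 2 without IRF.KO_Fast_518 or IRF.KO_Fast_519, 4 without IRF.KO_Refed_468 and 3 without IRF.KO_Refed_524, and Lss was called throughout. Within slide 187, the 1 refed mouse lay 1.81 above the mean of the 2 fasted IR/FoxO1 floxed mice, IRF.fl_Fast_523 among them, over the 17 enzymes, and within slide 184 the refed LIRFKO mouse lay 2.07 above the fasted one. In IR floxed mice the same within-slide difference was 1.38 on slide 184 and -0.15 on slide 185, where the refed mouse was IR.fl_Refed_566. The mouse numbers of the refed IR/FoxO1 floxed group are all lower than those of the fasted group and of refed IR floxed mice, so any cohort that the numbers mark cannot be told apart from feeding or line there. In LIRFKO mice the refed numbers are also lower than all the fasted ones, apart from that of IRF.KO_Refed_524. Such a cohort is thus only partly separated from feeding in LIRFKO mice.

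**Figure D3:**
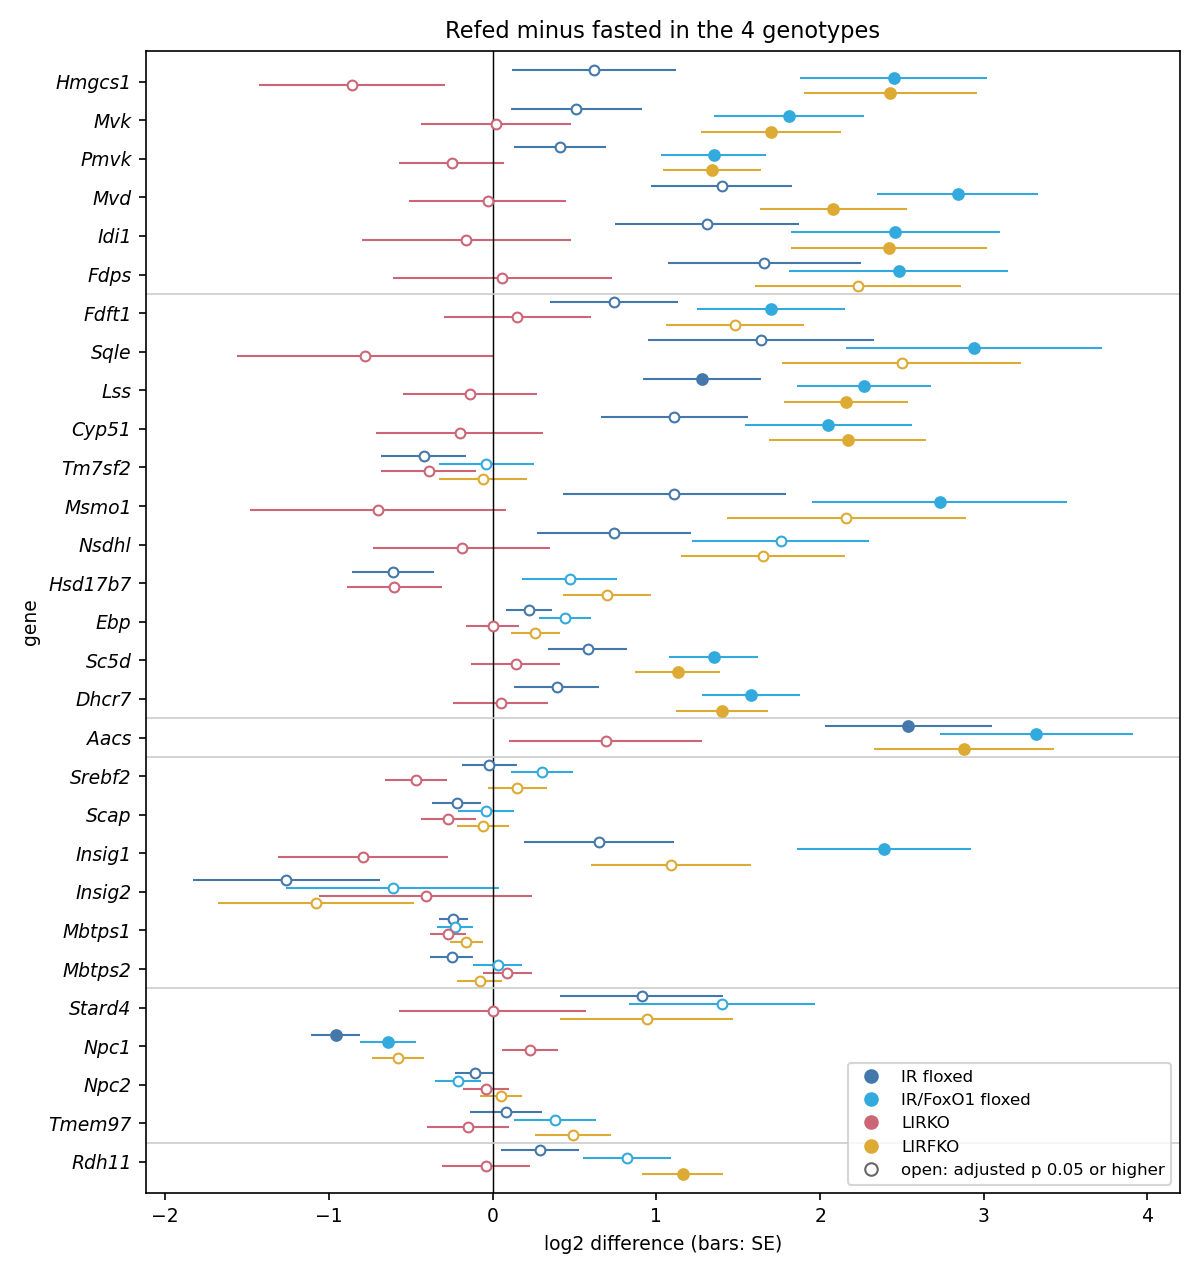
Refed minus fasted log2 difference (horizontal axis, bars are SE) for the 29 members (vertical axis, split by role) in the 4 genotypes, filled where the limma adjusted p was under 0.05. IR/FoxO1 floxed and LIRFKO points lie to the right for most enzymes, LIRKO points cluster around 0, and Npc1 lies left of 0 in each genotype except LIRKO.

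Whether the refeeding responses differed between genotypes was tested on the difference itself. For LIRKO less IR floxed, 1 member was called, Npc1, at 1.19 ± 0.22 with a limma adjusted p of 0.0221, against 0.165% of all genes, and 7 members had an unadjusted p under 0.05. That call was lost without IR.KO_Fast_505 (adjusted p of 0.344), IR.fl_Fast_486 (0.0558) or IR.fl_Refed_506 (0.0546) or IR.fl_Refed_562 (0.0755), and without the array block (0.0892). For Lss and Sqle the difference was -1.42 ± 0.52 and -2.42 ± 0.98, and neither passed. For LIRFKO less LIRKO no member was called by limma, against 0.0222% of all genes, although 20 had an unadjusted p under 0.05 and 26 of 29 differences were positive, with a median of 1.33. Hmgcs1 was the furthest apart there, at 3.29 ± 0.74 with an adjusted p of 0.188. For LIRFKO less IR/FoxO1 floxed no member was called, against 0.00445% of all genes, none had an unadjusted p under 0.05, and the median was -0.11, or -0.59 without IRF.fl_Fast_523, again with no call. For Hmgcs1 the 95% interval of that difference ran from -1.67 to 1.62, around -0.02, and the difference was -0.91 without that library. For IR/FoxO1 floxed less IR floxed no member was called, against 0.00445% of all genes, 8 had an unadjusted p under 0.05 and 28 of 29 differences were positive, with a median of 0.82, or 1.23 without that library, again with no call.

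Glucose for 60 min called no member by limma in IR floxed, LIRKO or LIRFKO mice, against 0.16%, 0.596% and 0.654% of all genes, and 2 members had an unadjusted p under 0.05 in each. The median member differences were -0.22, -0.09 and -0.16. Mvd read 6.81, 6.52 and 6.46 in glucose-treated IR floxed mice, within the range of the fasted mice, and the difference was -0.12 ± 0.49. Insig1 read 8.32, 7.13 and 6.93 in the same mice, the highest just above and the lowest just below the fasted range of 7.05 to 8.25, and the difference was -0.25 ± 0.53. Insig2 read 12.81, 14.17 and 14.68 there, a difference of 1.29 ± 0.65 that did not pass and whose groups overlapped. Aacs differed by between 0.63 (LIRFKO) and 1.03 (LIRKO) without passing. The glucose mice were compared with fasted mice at 60 min and the refed mice at 6 h, so the 2 treatments differ in time as well as in food. All glucose-treated mice also have higher mouse numbers than all fasted mice. Any cohort that the numbers mark therefore cannot be told apart from glucose treatment in these comparisons.

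The second question was the effect of losing the insulin receptor, set against IR floxed mice in each state. In refed mice 8 members were lower in LIRKO and 1 higher, against 11.6% of all genes called, with a median of -0.79. The lower genes were Pmvk, Mvd, Sqle, Tm7sf2, Msmo1, Ebp and Sc5d among the enzymes, and Insig1. In fasted mice and after glucose the members lower in LIRKO were Tm7sf2 and Ebp alone, against 8.06% and 8.3% of all genes, and the median differences were 0.01 and 0.08. The test of the refed against the fasted difference, given above as the difference of refeeding responses, called no enzyme.

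Tm7sf2 read 12.84, 12.78, 12.77 and 12.41 in fasted IR floxed mice and 11.08, 11.22 and 10.65 in fasted LIRKO mice. It read 12.25, 13.02, 12.04 and 11.76 in refed IR floxed and 10.65, 9.38, 11.22 and 10.96 in refed LIRKO mice, and 13.29, 13.06 and 12.69 against 11.66, 10.95 and 11.60 after glucose. The groups did not overlap in any of the 3 states, and the differences of -1.71 ± 0.28, -1.69 ± 0.25 and -1.39 ± 0.29 had limma adjusted p-values of 0.000249, 3.88e-05 and 0.00321. A second, dimmer Tm7sf2 probe gave group mean differences of -1.84, -1.87 and -1.82. Ebp read 13.51, 13.11, 13.03 and 13.63 against 12.73, 12.24 and 12.21 in fasted mice, and 13.40, 13.51, 13.89 and 13.13 against 12.61, 12.29, 12.54 and 12.24 in refed mice. After glucose it read 13.30, 12.74 and 13.44 in IR floxed and 12.20, 12.41 and 12.28 in LIRKO mice. Ebp did not overlap either, and differed by -0.95 ± 0.16, -1.17 ± 0.14 and -0.88 ± 0.17, with adjusted p-values of 0.000301, 1.85e-06 and 0.00112. Neither gene lost a call in any state when any mouse was left out.

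For most of the other enzymes the refed difference rested on few mice. Sc5d lost its call without 1 of the 8 mice (IR.fl_Refed_508, limma adjusted p of 0.0523), and Insig1 kept its call without each of them. Pmvk lost its call without 3 of the 8 mice, Sqle without 4, and Mvd and Msmo1 without 6 each. Their limma adjusted p-values then ran up to 0.0931, 0.0934, 0.171 and 0.182. Each of these calls was also lost without the array block, and those of Mvd and Msmo1 with slide as a term. Sqle read 10.53, 10.84, 11.04 and, in IR.fl_Refed_566, 8.42 in refed IR floxed and 9.15, 8.50, 8.52 and, in IR.KO_Refed_558, 6.32 in refed LIRKO mice, which overlapped because of IR.fl_Refed_566. The difference was -2.33 ± 0.68 with an adjusted p of 0.0222, and Insig1 differed by -1.86 ± 0.46 with an adjusted p of 0.00629. Hmgcs1 (-1.43 ± 0.50, adjusted p of 0.0614) and Aacs (-1.50 ± 0.51, adjusted p of 0.054) missed the threshold. The count of 9 members became 4 without IR.fl_Refed_508, 5 without IR.fl_Refed_562 or IR.KO_Refed_558, and 12 without IR.fl_Refed_566. Over the 17 enzymes the within-slide differences were -0.81 and -1.28 on slides 184 and 186, and 0.03 on slide 185, where the IR floxed mouse was IR.fl_Refed_566.

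Npc1 ran the other way. In refed mice every LIRKO value (9.48 to 10.13) lay above every IR floxed value (8.32 to 8.66), a difference of 1.27 ± 0.15 with a limma adjusted p of 1.25e-06, whereas in fasted mice the difference was 0.08 ± 0.16. After glucose it was 0.48 ± 0.17, with an adjusted p of 0.0872. The refed call held without each of the 8 mice left out in turn, with differences between 1.19 and 1.34. In the same refed LIRKO livers 8 of the 9 macrophage markers were higher, with a mean over the 9 of 9.74 ± 0.10 (range 9.60 to 9.82) against 8.39 ± 0.10 (8.25 to 8.48) in IR floxed mice, and the mean of the 6 hepatocyte markers was 14.70 ± 0.49 (13.96 to 14.98) against 15.27 ± 0.13 (15.09 to 15.37). Their part in the refed values of Npc1 and of the enzymes was not tested. In fasted mice, where Tm7sf2 and Ebp were also called, none of the 9 macrophage markers was called, although their mean was also higher, at 9.20 ± 0.19 (8.98 to 9.32) in LIRKO and 8.75 ± 0.17 (8.61 to 8.97) in IR floxed mice, without overlap. The fasted hepatocyte means were 14.94 to 15.16 in LIRKO and 15.29 to 15.41 in IR floxed mice, and after glucose the macrophage means were 8.88 to 9.45 and 8.14 to 8.70, neither overlapping. Their part in the values of Tm7sf2 and Ebp was not tested.

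**Figure D4:**
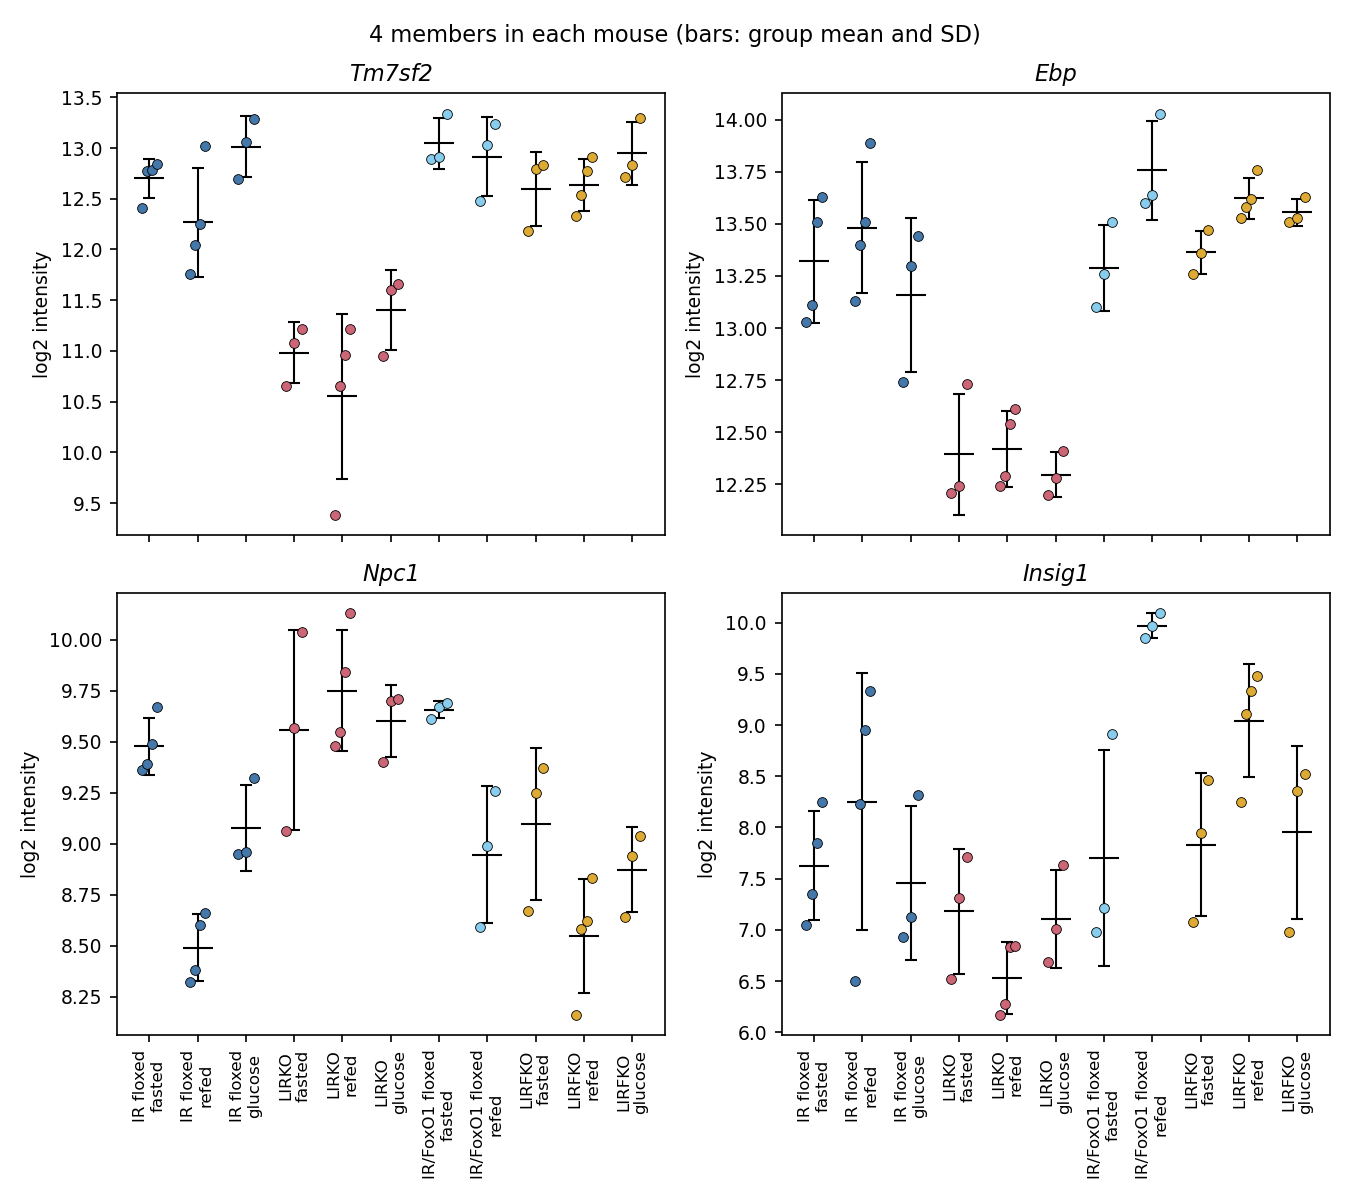
Log2 intensity (vertical axes) of Tm7sf2, Ebp, Npc1 and Insig1 in each mouse of the 11 groups (horizontal axis), with group means and SD as bars. Tm7sf2 and Ebp are low in all 3 LIRKO groups, Npc1 is low in each refed group except LIRKO, and Insig1 is highest in refed IR/FoxO1 floxed mice at 9.85 to 10.09.

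The third question was whether mice lacking both genes differed from their own floxed controls. No member was called by limma in LIRFKO against IR/FoxO1 floxed mice, fasted or refed, against 0.00445% and 0.378% of all genes, and 1 and 3 members had an unadjusted p under 0.05. The medians over the 29 members were -0.07 fasted and -0.18 refed. Refed Hmgcs1 read 14.28, 14.01, 13.10 and 14.91 in LIRFKO and 13.30, 14.13 and 14.18 in IR/FoxO1 floxed mice, a difference of 0.16 with a 95% interval from -0.99 to 1.31. For refed Lss the interval ran from -1.01 to 0.63, around -0.19, and for Tm7sf2 from -0.95 to 0.23, around -0.36. Refed Insig1 was lower in all 4 LIRFKO mice (8.25 to 9.48) than in all 3 controls (9.85 to 10.09), a difference of -1.14 ± 0.52 with an adjusted p of 0.424. Without IRF.fl_Fast_523 the fasted median was 0.29 and again no member was called, and Mvd, for example, went from -0.08 to 0.63. Ebp, which was low in LIRKO, read 13.53, 13.76, 13.58 and 13.62 in refed LIRFKO mice and 13.60, 14.03 and 13.64 in their controls, which overlapped.

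LIRFKO against LIRKO, the direct comparison of mice without the receptor and with or without FoxO1, gave the largest member counts. The mouse numbers of refed LIRFKO mice are all lower than those of refed LIRKO mice. Any cohort that the numbers mark therefore cannot be told apart from genotype or line in the refed comparison. In refed mice 24 of the 29 members were higher in LIRFKO and 1, Npc1, was lower, against 8.09% of all genes called, with a median of 1.98. All 17 enzymes were called and, for each, all 4 LIRFKO mice lay above all 4 LIRKO mice. In total 24 members lay above without overlap, against 6.4% of all genes in that direction. Sqle read 12.90, 12.76, 11.42 and 12.73 in refed LIRFKO mice, above the LIRKO values of 9.15, 6.32, 8.50 and 8.52, a difference of 4.43 ± 0.68, 21.5-fold, with a limma adjusted p of 8.41e-05. Hmgcs1 read 11.11, 9.26, 9.81 and 10.16 in refed LIRKO mice, and the difference of 4.14 ± 0.50 was 17.6-fold. Msmo1, the sterol methyl oxidase, was higher by 3.91 and Idi1 by 3.47. Srebf2 itself was 0.97 ± 0.16 higher, at 7.41, 7.06, 6.76 and 7.49 against 6.42, 5.99, 6.25 and 6.42. A second Srebf2 probe gave a group mean difference of only 0.13. Both probes were dim, with means of 6.64 for the probe used and 6.02 for the second, where the column medians lay between 5.72 and 5.78. Npc1 read 8.58, 8.62, 8.16 and 8.83 against 9.48, 9.55, 9.84 and 10.13, a difference of -1.31 ± 0.15.

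The 4 members not called in that comparison were Scap, Insig2, Mbtps2 and Npc2. Insig2 differed by -1.68 ± 0.56 with an adjusted p of 0.0657. The count ran from 23 to 25 as each mouse was left out, and of the 25 calls Stard4 was lost without 7 of the 8 mice and Tmem97 without 1 (IRF.KO_Refed_468, adjusted p of 0.0577). Within slides 184, 186 and 188 the mean enzyme difference was 2.52, 2.55 and 2.41, with 17 of 17 enzymes positive on each. The mean of the 9 macrophage markers was 8.96 ± 0.25 (8.65 to 9.26) in these LIRFKO mice and 9.74 ± 0.10 (9.60 to 9.82) in LIRKO mice, 7 of the 9 were called lower, and their part in the member differences was not tested.

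Outside the refed state the comparison called few members. In fasted mice Tm7sf2 (1.65 ± 0.30), Ebp (0.99 ± 0.17) and Mbtps1 (0.39 ± 0.11) were higher in LIRFKO than in LIRKO, against 6.52% of all genes called, with a median of 0.46. Mbtps1 was no longer called without 4 of the 6 mice, with adjusted p-values up to 0.393. Its fasted call was also lost without the array block (limma adjusted p of 0.0968) and with the mean of all probes (0.161). A second, dim Mbtps1 probe (mean 6.01, against 10.36 for the probe used) gave a group mean difference of 0.08 fasted. In refed mice the second probe gave 0.04, where the probe used differed by 0.50. After glucose Tm7sf2 (1.46 ± 0.29), Ebp (1.26 ± 0.17) and Sc5d (0.98 ± 0.27) were higher and Npc1 was lower (-0.72 ± 0.17), against 7.57% of all genes, with a median of 0.35. Without IRF.KO_GTT_725 1 member was called, and without IR.KO_GTT_697 there were 2. After glucose the mouse numbers of LIRFKO mice are all higher than those of LIRKO mice. Any cohort that they mark cannot be told apart from genotype or line there.

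The control lines were then compared, since LIRFKO and LIRKO mice come from different crosses. In refed mice the members were higher in IR/FoxO1 floxed than in IR floxed livers by a median of 1.56, 26 of the 29 differences were positive, and 2 passed the test over all genes, against 0.0845% of all genes called, with 23 members at an unadjusted p under 0.05. The 2 calls were Dhcr7 (1.85 ± 0.27, adjusted p of 0.00235) and Hsd17b7 (1.56 ± 0.27, adjusted p of 0.0102). Dhcr7 kept its call without each of the 7 mice left out in turn. Hsd17b7 lost its call without 3 of the 7, with limma adjusted p-values up to 0.098. 19 of the 29 members, 15 of the 17 enzymes among them, lay higher without overlap, against 3.24% of all genes in that direction. Hmgcs1 read 13.30, 14.13 and 14.18 in IR/FoxO1 floxed and 11.27, 11.92, 12.17 and 10.17 in IR floxed mice, a difference of 2.55 ± 0.53 with an adjusted p of 0.0555. Mvd differed by 2.10 ± 0.45 with an adjusted p of 0.0658.

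The count of 2 was 1 without IR.fl_Refed_566 or IRF.fl_Refed_472 or IRF.fl_Refed_473, and 6 without IR.fl_Refed_508. It was 8 when IRF.fl_Fast_523, which is in neither refed group, was left out of the shared estimate of spread, against 0.138% of all genes. Within slide 185, 2 IR/FoxO1 floxed mice lay 2.53 above IR.fl_Refed_566 over the 17 enzymes. That mouse had the lowest enzyme mean of its group, at 9.33 where the others ran from 10.36 to 10.72, which makes this within-slide difference larger. In fasted mice no member was called by limma, against 0.0356% of all genes, 2 had an unadjusted p under 0.05, and the median was 0.48, or 0.10 without IRF.fl_Fast_523.

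The refed difference between LIRFKO and LIRKO is, in the same fit, the sum of 3 terms: LIRFKO less its own controls, the difference between the control lines, and the LIRKO effect with its sign turned. For Hmgcs1 these were 0.16, 2.55 and 1.43, which make 4.14. For Sqle they were -0.09, 2.18 and 2.33, for Lss -0.19, 1.58 and 0.70, and for Dhcr7 -0.18, 1.85 and 0.55. For Hsd17b7 they were -0.02, 1.56 and -0.01, so that its whole refed difference of 1.54 was matched by the difference between the floxed lines. For Ebp the terms were -0.16, 0.25 and 1.17, and for Tm7sf2 -0.36, 0.66 and 1.69, where the LIRKO effect was the largest term. For Npc1 they were -0.46, 0.43 and -1.27. Over the 17 enzymes the medians were -0.18 for LIRFKO less its controls, 1.76 for the control lines and -1.17 for LIRKO less its controls.

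**Figure D5:**
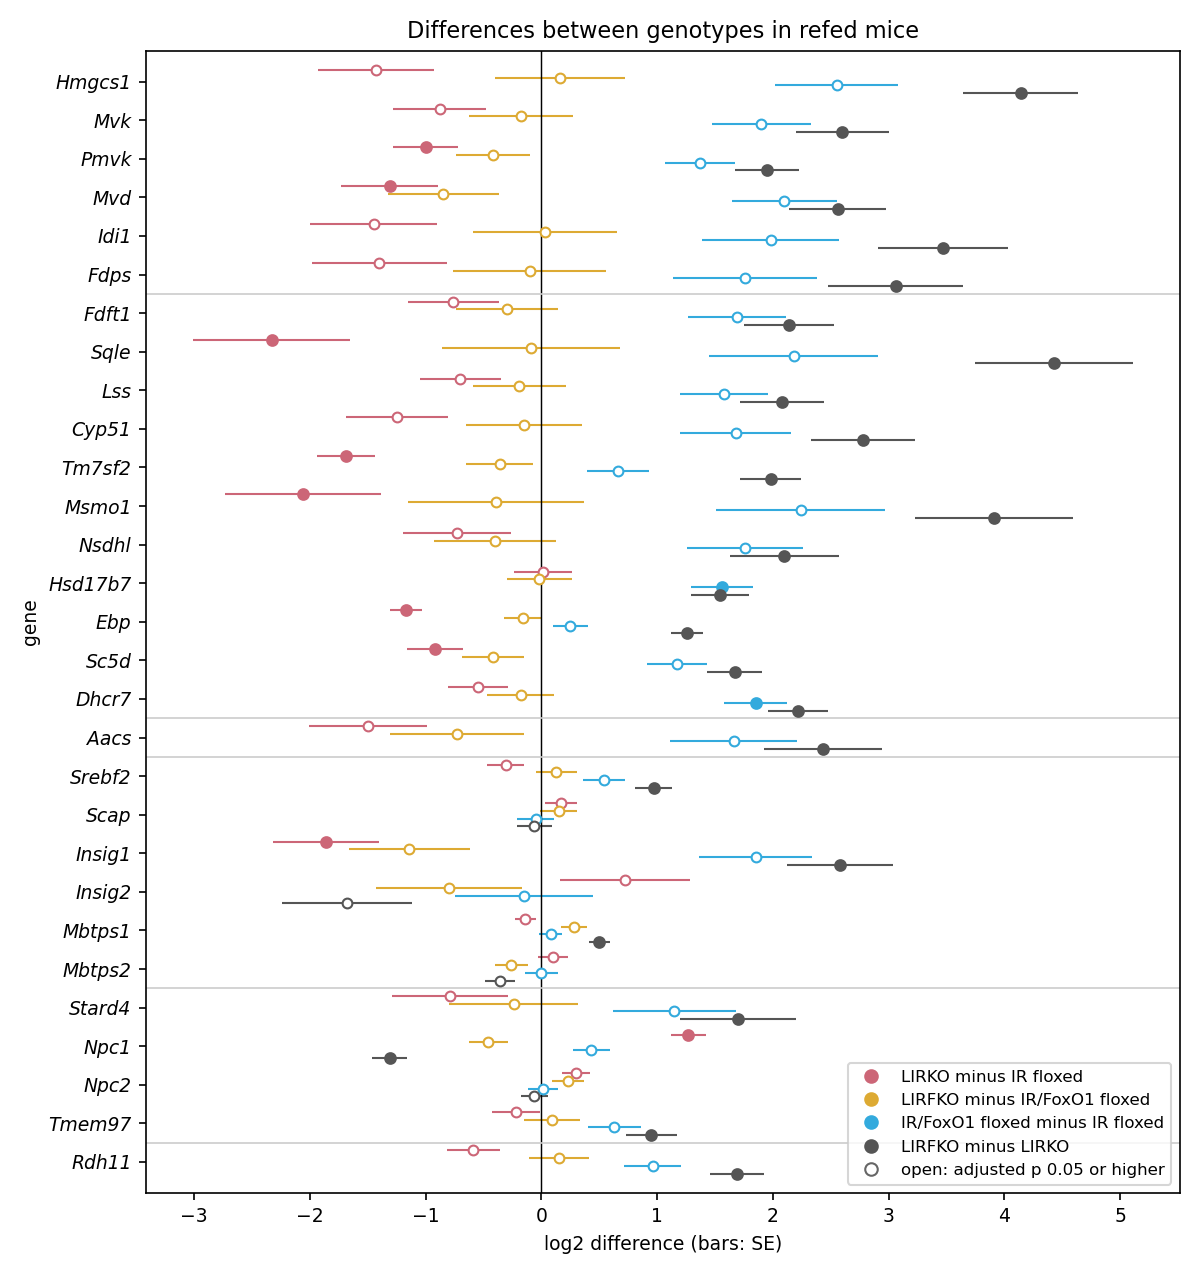
Log2 differences between refed genotypes (horizontal axis, bars are SE) for the 29 members (vertical axis, split by role), filled where the limma adjusted p was under 0.05. LIRFKO minus IR/FoxO1 floxed has no filled point and lies between -0.85 (Mvd) and 0.16 (Hmgcs1) for the enzymes, with Insig1 at -1.14. IR/FoxO1 floxed minus IR floxed lies to the right for most enzymes and near 0 for Ebp at 0.25.

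An additive difference between the lines cancels when the effect of the deletions in LIRFKO, against its own controls, is set against the effect in LIRKO, against its own. In fasted mice 1 member was called, Ebp, at 0.96 ± 0.22 with a limma adjusted p of 0.0283, against 0.934% of all genes. That call was lost without IR.KO_Fast_550 (adjusted p of 0.151), IRF.KO_Fast_518 (0.137), IRF.fl_Fast_516 (0.131), IR.fl_Fast_486 (0.077) or IR.fl_Fast_491 (0.0541), or IRF.fl_Fast_523 (0.0648), with slide as a term (0.0507) and without the array block (0.116). In refed mice Ebp (1.01 ± 0.21, adjusted p of 0.0101) and Npc1 (-1.73 ± 0.22, adjusted p of 3.75e-05) were called, against 1.32% of all genes, and 7 members had an unadjusted p under 0.05. Npc1 kept its call without each of the 15 mice left out in turn, and Ebp lost it without IRF.fl_Refed_467 (adjusted p of 0.0516) and without the array block (0.0526). Tm7sf2 differed by 1.37 ± 0.40 fasted (1.25 without IRF.fl_Fast_523) and 1.32 ± 0.38 refed, with adjusted p-values of 0.099 and 0.078. For Lss the refed difference was 0.51 with a 95% interval from -0.57 to 1.58, and for Hmgcs1 it was 1.58, with an interval from 0.08 to 3.09 and an adjusted p of 0.37. The count in refed mice was 4 without IR.fl_Refed_566. On the refeeding response itself, the same contrast called no member by limma, against 0.00889% of all genes, 1 had an unadjusted p under 0.05, and the median was 0.37, or 0.04 without IRF.fl_Fast_523.

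The members differed in how closely they followed the pathway over the 37 mice, as Pearson's r of each with the mean of the other enzymes, a description in which group differences and shared arrays both enter. r was between 0.88 and 0.98 for 14 of the 17 enzymes, with Cyp51, the lanosterol demethylase, highest. It was 0.73 for Hsd17b7, 0.63 for Ebp and 0.41 for Tm7sf2. Rdh11 (0.94), Insig1 (0.90), Stard4 (0.89), Tmem97 (0.88), Aacs (0.82) and Srebf2 (0.80) followed the enzymes, whereas Insig2 (-0.74), Npc1 (-0.50) and Scap (-0.42) ran against them. Genes outside the set were ranked in the same way if their mean level was above the median of all genes. Among these, the most alike in pattern to the enzyme mean over the same 37 mice were Mmab (0.908), Acly (0.891), Fasn (0.886), Nfe2 (0.867) and Erg28 (0.849).

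Neighbouring pathways were read from lists of their own. Of 17 measured genes of fatty acid synthesis, 4 rose and 1 fell with refeeding in IR floxed mice, 3 rose in IR/FoxO1 floxed, none in LIRKO and 4 in LIRFKO mice. These counts and those of the other lists stand against 3.61%, 3.54%, 1.85% and 1.81% of all genes called in the 4 genotypes. Fasn, the fatty acid synthase, rose by 0.96 ± 0.27, 1.63 ± 0.31 and 1.50 ± 0.29 in IR floxed, IR/FoxO1 floxed and LIRFKO mice, and differed by 0.27 ± 0.31 in LIRKO mice. Acly, which supplies cytosolic acetyl-CoA to both pathways, rose by 1.18 ± 0.18 in IR/FoxO1 floxed and 1.13 ± 0.17 in LIRFKO mice. It was also higher in refed IR/FoxO1 floxed than in refed IR floxed mice, by 0.83 ± 0.17 with a limma adjusted p of 0.0429. None of the 9 measured genes of the non-sterol isoprenoid branch, which draws on the same farnesyl diphosphate, was called on refeeding in any genotype. Of the 4 measured genes of sterol-regulated protein degradation, 1 rose in IR floxed mice and none was called in the other genotypes. Of the 8 targets of the oxysterol receptor LXR and genes of sterol efflux, 1 rose in IR floxed mice, 1 rose and 2 fell in IR/FoxO1 floxed mice, and none was called in LIRKO or LIRFKO mice. Cyp7a1, the rate-limiting enzyme of bile acid synthesis, was lower in LIRKO than in IR floxed mice in all 3 states, by -4.94 ± 0.57 fasted, -1.60 ± 0.52 refed and -2.67 ± 0.60 after glucose. It was higher in LIRFKO than in LIRKO mice in the same states, by 4.30, 2.11 and 3.75. Those differences also hold any difference between the 2 lines, which is not separated from FoxO1 loss for Cyp7a1 here.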

How the data were processed

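Liver RNA (200 ng a sample) was labelled with Cy3 or Cy5 and hybridised to 20 arrays on 5 slides, 2 samples to an array on 17 of those used here. The deposited values are log2 intensities per channel and probe, between 5.07 and 16, normalized by the authors. R 3.1.0 and limma 3.20.1 are named in the submitters' processing notes, and neither the background correction nor the normalization is given in the sources used here.

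Of 45220 features, 33026 named 1 gene in the platform annotation, giving 22485 genes. limma 3.58.1 (R 4.3.3, statmod 1.5.0) fitted 11 group means with dye as a term and array as a random block (duplicateCorrelation, consensus 0.358), so fitted differences can differ slightly from differences of group means. p-values were adjusted by Benjamini-Hochberg over all genes in each of 24 comparisons, and the script was tested on simulated data. The number of mice and arrays limits the precision. The named genes were all measured members, with values per mouse for the 4 enzymes of smallest p in the IR/FoxO1 floxed refeeding comparison and for Insig1, Srebf2 and Insig2; Hmgcs1, Sqle, Aacs, Tm7sf2, Ebp and Npc1 were added after their values were seen. The members and lists were chosen with earlier results of these data known. Alternatives were slide as a term, no array block, quantile normalization, genes above the median level, the mean of all probes, and each mouse left out.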

Additional observations from a re-analysis of the deposited data

Results flagged for a closer look

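In groups of 4 mice, 116 group and member pairs were examined with Dixon's criterion for the gap of 1 mouse to the others, and 11 exceeded it; chance alone marks about 1 in 20. IRF.KO_Refed_478 was low for Mvk (11.24, the others 12.70 to 12.93), Pmvk (11.34, the others 12.78 to 12.87), Sqle (11.42, the others 12.73 to 12.90) and Aacs (10.04, the others 11.91 to 12.28). IR.KO_Refed_558 was low for Fdps (9.10, the others 11.04 to 11.21), Nsdhl (6.38, the others 7.28 to 7.45) and Rdh11 (7.95, the others 8.49 to 8.53). IR.fl_Fast_486 was high for Fdps (11.04, the others 9.64 to 9.71) and Nsdhl (7.60, the others 6.67 to 6.73), and IR.fl_Fast_552 was low for Tm7sf2 (12.41, the others 12.77 to 12.84). IR.fl_Refed_566 was low for Msmo1 (9.86, the others 12.85 to 13.33). The enzymes share each mouse, so these pairs are not independent.

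Effects that differed between genotypes in a test of the difference were those of Npc1 and Ebp. The refeeding response of Npc1 was 1.19 higher in LIRKO than in IR floxed mice. The effect of the deletions on Ebp, each against its own controls, was 0.96 higher in LIRFKO than in LIRKO in fasted mice and 1.01 higher in refed mice. For Npc1 the corresponding refed difference was -1.73.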

How the results depend on the processing

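No paired analysis was possible because mouse numbers differ between the groups. No called member changed direction under any alternative, whereas members not called did in fasted LIRFKO against IR/FoxO1 floxed mice without IRF.fl_Fast_523 (Mvd, -0.08 to 0.63). Values of called members under an alternative kept the call in 839 cases and lost it in 175. Counts of called members moved by over 1.5 times as follows. Without the array block they were 10 for refeeding in IR/FoxO1 floxed mice, 7 for refeeding in LIRFKO, 5 for refed LIRKO against IR floxed, 0 for the difference of refeeding responses between LIRKO and IR floxed, and 0 fasted and 1 refed for the difference of deletion effects. With slide as a term the fasted difference of deletion effects gave 0. For refed IR/FoxO1 floxed against IR floxed the count was 7 among genes above the median level, and 8 with IRF.fl_Fast_523 left out of the shared fit, an alternative chosen after seeing the data. Quantile normalization and the mean of all probes moved no count.

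With each mouse left out, the counts ran from 5 to 17 for refeeding in IR/FoxO1 floxed mice, from 2 to 11 in LIRFKO, from 4 to 12 for refed LIRKO against IR floxed, from 1 to 4 for LIRFKO against LIRKO after glucose and from 1 to 6 for refed IR/FoxO1 floxed against IR floxed. They ran from 0 to 1 for the difference of refeeding responses between LIRKO and IR floxed, and from 0 to 1 fasted and 1 to 4 refed for the difference of deletion effects. Refed LIRFKO against LIRKO stayed between 23 and 25. Groups of 3 or 4 mice limit every comparison.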

Other observations

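The sample titled IRF.KO_GTT_724, whose labels give both glucose treatment and fasting, had a mean over the 17 enzymes of 9.39, with 13.22 for Tm7sf2, 13.52 for Ebp and 8.65 for Npc1.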
